A study of Mus musculus with 24 samples.

Results

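Collagen genes were taken as the rows of the deposited count table with a symbol made of Col, a number, a and a number, and a mean of at least 0.2 CPM (counts scaled to library size) over the 24 libraries. All 44 collagen symbols among the 24421 genes of the table met that minimum, and all 44 also passed the filter on low counts that left 16316 genes for testing. The members nearest the minimum were Col4a3, at a mean of 0.239 CPM, and Col6a6, at 0.295 CPM, and no collagen symbol fell below it. RNA came from the cortex of mice aged 7.5 months that all carried 5xFAD, a set of human transgenes that leads to amyloid plaques. WT mice were wild type for both Trem2 and Plcg2, Trem2KO mice lacked Trem2, a lipid-sensing receptor of microglia, Plcg2KO mice lacked Plcg2, a phospholipase that acts downstream of such receptors, and mice labelled Plcg2HET were heterozygous for the Plcg2 knockout according to their labels. Each genotype had 6 mice with 1 library each, 3 males and 3 females in WT, Trem2KO and Plcg2HET, and 4 males and 2 females in Plcg2KO. No cortex without 5xFAD was analysed here, and the sources used here do not give how the knockout alleles were made or in which cells they act.

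Collagens are secreted or membrane-bound proteins whose chains wind in threes into a rod, the triple helix, which needs a glycine at the start of every triplet of residues. Fibrillar collagens (types I, II, III, V, XI, XXIV and XXVII) pack into fibres, and type IV collagen forms the sheet-like network of basement membranes. In the brain, fibrillar collagens are known mainly from fibroblasts of the meninges and of larger vessels, type IV collagen from the basement membrane around vessels, and some transmembrane and fibril-associated collagens from neurons. In such bulk RNA, fewer cells of a type and less RNA per cell cannot be told apart.

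The repeat that sets fibrillar chains apart from type IV chains can be read in their coding sequences, so a stretch of a chain that rose, a fibrillar chain that fell and a type IV chain is shown, from GENCODE M21 transcripts, 5′ to 3′ on the sense strand, with capitals on the glycine codons that start a triplet.
Col1a2, codons 97 to 117: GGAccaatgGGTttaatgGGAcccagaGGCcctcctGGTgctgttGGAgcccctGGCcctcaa
Col24a1, codons 553 to 576: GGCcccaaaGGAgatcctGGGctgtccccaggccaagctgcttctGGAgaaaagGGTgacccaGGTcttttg
Col4a1, codons 1222 to 1241: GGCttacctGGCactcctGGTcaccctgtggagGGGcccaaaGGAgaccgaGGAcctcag
The Col1a2 stretch opens a run of 339 triplets without a break. The Col24a1 stretch crosses a gap of 6 codons beside its longest run of 216 triplets, and the Col4a1 stretch a gap of 2 codons beside its longest run of 40. Counting runs of at least 4 triplets in the longest open reading frame of each gene, the longest run was 337 to 344 triplets in Col1a1, Col1a2, Col2a1, Col3a1, Col5a1, Col5a2, Col5a3, Col11a1 and Col11a2, but 216 in Col24a1 and 217 in Col27a1. In the 6 type IV genes the longest run was 39 to 66 triplets, with 22 to 27 runs per gene.

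Col1a2 and the type IV pair also differ in how their genes start. Col4a1 and Col4a2 lie head to head on chromosome 8, with 2 bases between their first annotated bases in the deposited table (mm10), and by their RefSeq starts, 11312826 for Col4a1 and 11312805 for Col4a2, the transcripts overlap. Col1a2 lies on chromosome 6. The 250 bases before the RefSeq start of Col1a2 (GRCm38.p6, chr6:4505368-4505617, plus strand), with the match to CCAAT in capitals, and the 30 bases around the RefSeq start of Col4a1 (chr8:11312812-11312841, minus strand), with capitals from its first transcribed base, are as follows.
Col1a2: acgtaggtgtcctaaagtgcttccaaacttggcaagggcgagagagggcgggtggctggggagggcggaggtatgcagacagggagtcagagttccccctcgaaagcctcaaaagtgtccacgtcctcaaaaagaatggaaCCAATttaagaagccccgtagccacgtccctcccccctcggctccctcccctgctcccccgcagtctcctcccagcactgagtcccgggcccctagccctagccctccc
Col4a1: cgcagggtcctccccTTGGAGACGCCGCCC
The promoter windows of Col4a1 and Col4a2, 250 bases before to 50 after each start, share 78 bases. Among the 35 collagen genes with such a window, CCAAT on either strand was found in 12 (34.3%), against 37.9% of all 27025 windows, and GGGCGG on either strand in 22 (62.9%), against 35.9%. TATAAA on the sense strand was found in 5 of the 35 (14.3%), against 8.88% of all windows, and none of these motifs contains another.

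By CPM per kilobase of exon, which allows levels to be compared between genes, the highest of the 44 collagen genes over all libraries was Col6a1, a chain of the beaded filaments of type VI, at 9.04. Next came Col25a1 at 6.05, Col6a2 at 5.26, Col4a2 at 4.90 and Col1a2 at 4.12, and the lowest was Col4a3 at 0.0282. The summed CPM of all 44 genes lay between 268.7 and 382.3 in WT, 325.1 and 367.1 in Trem2KO, 276.4 and 348.4 in Plcg2KO, and 288.5 and 421.6 in Plcg2HET. The 4 ranges overlapped, and the sum was not tested.

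Total counts were 36272966 to 82990818 per library, and the raw counts of a collagen gene in a library ran from 0 (Col4a3, Col4a4 and Col10a1) to 4560 (Col25a1). The targeted genes matched the labels of both knockouts. Plcg2 was at 0.739 to 1.2 CPM in Plcg2KO against 7.73 to 15.2 in WT, and Trem2 at 4.59 to 7.45 CPM in Trem2KO against 46.5 to 119 in WT. In libraries labelled Plcg2HET, Plcg2 was at 5.89 to 19.8 CPM, a range that held all of the WT range. Cortical excitatory markers were present in every library (Slc17a7 at 1278 to 2622 CPM), and so were markers of striatal neurons, whose summed level was 856.8 to 1203 CPM. Each library's deviations from the mean of all were set against GC content across genes by Spearman correlation. WT was mixed, from -0.511 in M2 to 0.258 in F2, with little trend in M1 (-0.06), F1 (-0.062) and M3 (0.071). Plcg2KO was negative throughout, between -0.566 and -0.285. Trem2KO reached 0.52, and its only negative value was a weak -0.076 in M2. Plcg2HET was split, with 0.279 to 0.556 in M1, M2, F1 and F3 but -0.451 in M3 and -0.371 in F2, and 3 libraries (WT F1, Plcg2HET F1 and F3) took over 5% of their counts from the ribosomal RNA precursor Rn45s.

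Genotype was first tested over all 4 groups at once, and 26 of the 44 collagen genes were called at an adjusted p under 0.05 (edgeR's quasi-likelihood test, Benjamini-Hochberg over 16316 genes), against 45.7% of all genes. Type by type, 9 of 11 fibrillar genes were called, 3 of 6 type IV genes and 7 of 9 fibril-associated genes. In Plcg2KO against WT, 4 collagen genes were higher and 11 lower, where 5.44% of all genes were higher and 7.63% lower. In Trem2KO against WT, 7 were higher and 7 lower, where 7.56% and 8.16% of all genes were. In Plcg2HET against WT, 3 were higher and 5 lower, where 10.9% and 7.13% of all genes were. The median log2 fold change of the 44 genes was -0.17 in Plcg2KO, -0.08 in Trem2KO and -0.19 in Plcg2HET, beside -0.003, -0.024 and -0.006 over all genes tested. These 3 comparisons share the WT libraries, so their values are set side by side and their likeness is not tested.

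**Figure D1:**
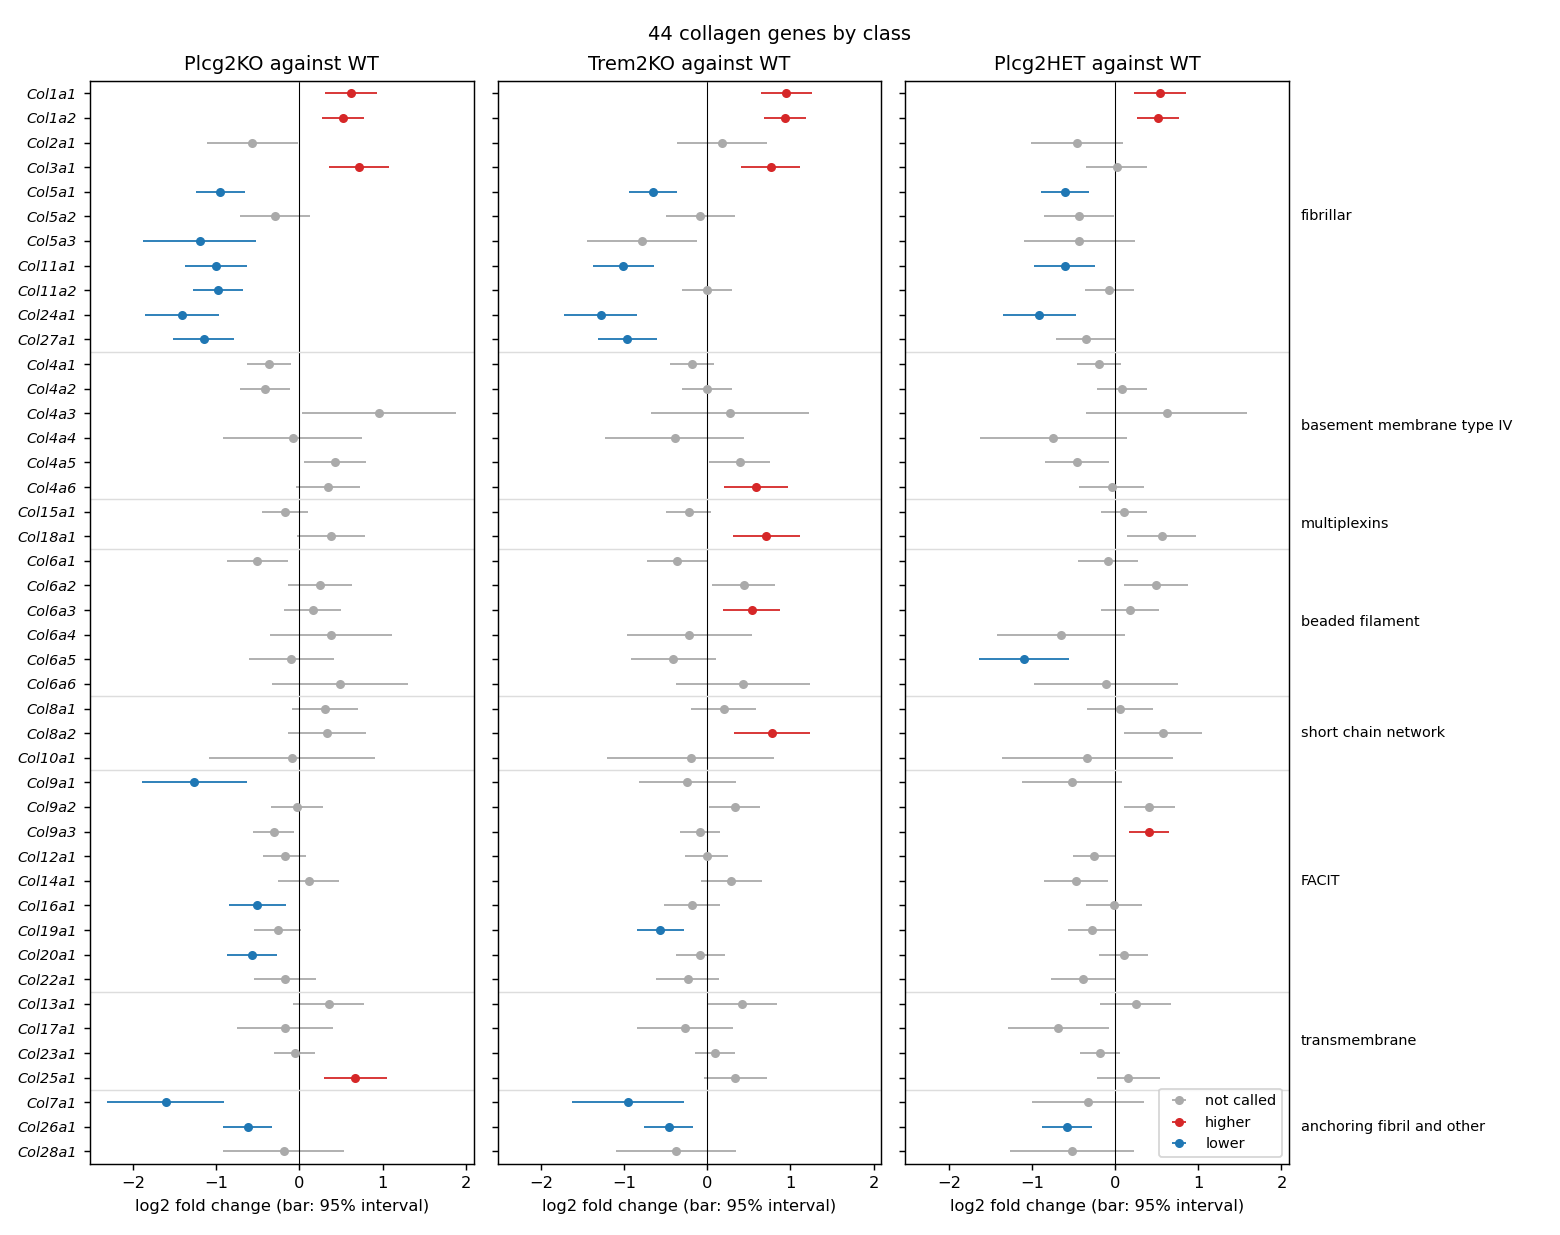
Log2 fold change of each of the 44 collagen genes (rows, by class) against WT in Plcg2KO, Trem2KO and Plcg2HET, with 95% intervals from the edgeR fit over 24 libraries. Red and blue mark genes called higher or lower; Col1a1, Col1a2 and Col3a1 lie to the right in both knockouts while Col5a1, Col11a1, Col24a1 and Col27a1 lie to the left.

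The collagens of large fibres rose in both knockouts. Col1a1 and Col1a2 encode the chains of type I collagen, the main collagen of fibrous tissue, and Col3a1 encodes type III collagen, which accompanies it in vessel walls. Col1a1 (chr11:94936270-94951856) had a lowest, median and highest CPM of 4.31, 5.72 and 7.05 in WT, 7.97, 11.2 and 13.3 in Trem2KO, and 7.66, 8.43 and 10.1 in Plcg2KO. Every library of either knockout lay above every WT library. The log2 fold change of Col1a1 was 0.95 ± 0.15 (SE, n = 6 against 6) in Trem2KO, with an adjusted p of 0.000108 by edgeR, and 0.62 ± 0.15 in Plcg2KO, with an adjusted p of 0.00613.

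Col1a2 (chr6:4505697-4541543), whose uninterrupted repeat is shown above, had a lowest, median and highest CPM of 10.02, 14.9 and 17.9 in WT, 25.6, 28.3 and 29.8 in Trem2KO, and 17.7, 21.8 and 23.8 in Plcg2KO. Trem2KO did not overlap WT, and in Plcg2KO the lowest library, F1, fell just inside the WT range. Its log2 fold change was 0.94 ± 0.12 in Trem2KO (adjusted p 9.34e-06, edgeR) and 0.52 ± 0.12 in Plcg2KO (adjusted p 0.00494, edgeR). Col3a1 (chr1:45311538-45349706) had a lowest, median and highest CPM of 1.49, 1.75 and 2.78 in WT, 2.72, 3.32 and 3.56 in Trem2KO, and 2.25, 3.08 and 3.77 in Plcg2KO. A single WT library, F2, reached into the range of both knockouts. The log2 fold change of Col3a1 was 0.76 ± 0.17 in Trem2KO and 0.72 ± 0.18 in Plcg2KO, with adjusted p of 0.00364 and 0.00632 by edgeR. All 6 of these calls kept their direction in each sex alone, where 5 of them missed the threshold in males and 4 in females. They held with any 1 library left out and after offsets for GC content and transcript length were fitted, where the log2 fold changes ran from 0.57 to 0.79.

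**Figure D2:**
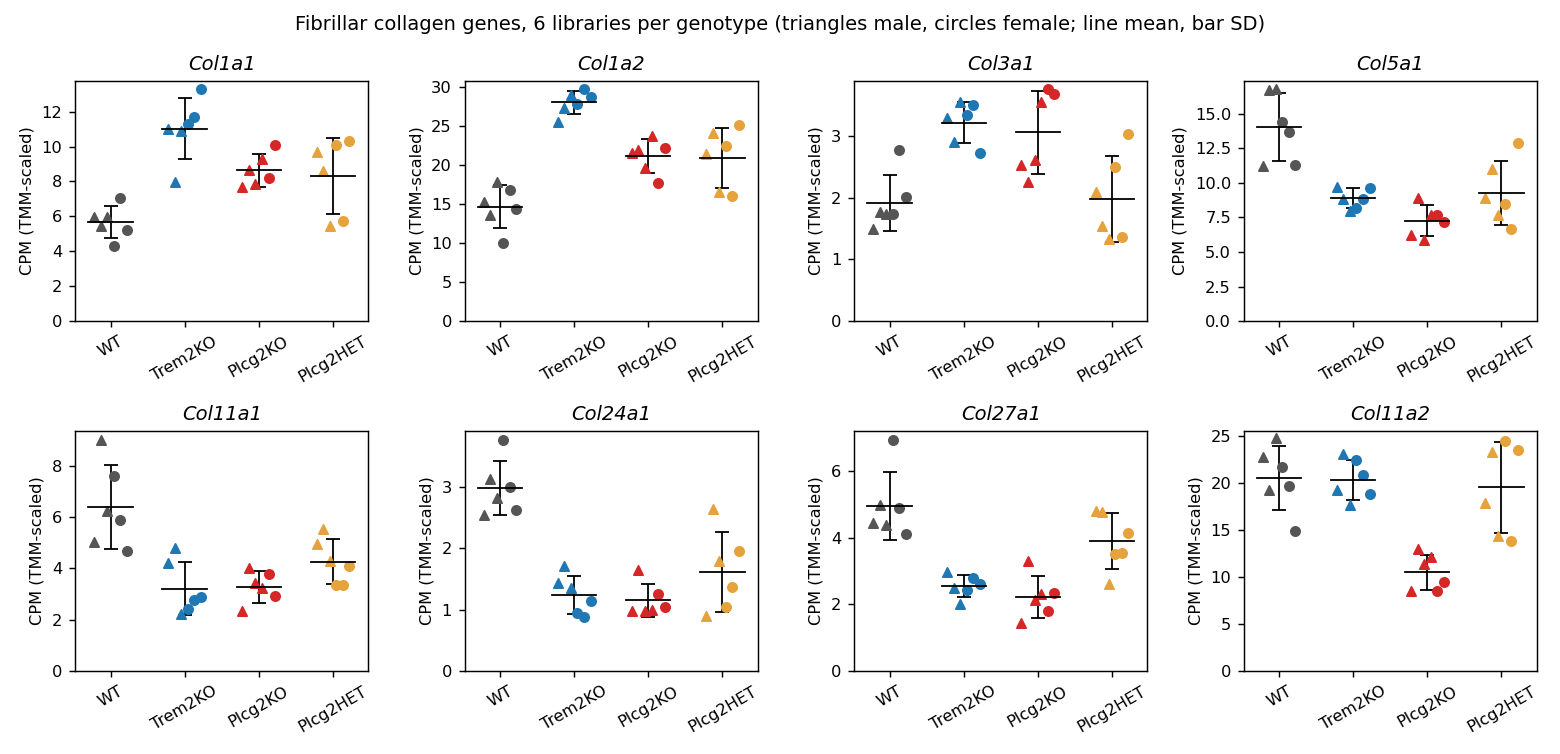
CPM of 8 fibrillar collagen genes in each of 24 libraries, by genotype, with the mean (line) and SD (bar) of 6 libraries, triangles for males and circles for females. Col1a1 is above the WT range in all 12 knockout libraries, Col24a1 and Col27a1 are below it in all 12, and Col11a2 is below it in Plcg2KO and inside it in Trem2KO.

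Of the 8 fibrillar genes outside types I and III, 6 were lower in Plcg2KO and 4 in Trem2KO, and none was higher. Of all genes, 7.63% were lower in Plcg2KO and 8.16% in Trem2KO. The genes of types I and III, which rose, were set aside from this count with their results known. Col5a1 encodes a chain of type V collagen, which seeds type I fibrils and limits their width, and Col11a1 a chain of type XI, its cartilage counterpart. Col24a1 and Col27a1 encode the fibrillar collagens with interrupted helices. Col5a1 (chr2:27886425-28039510) had a lowest, median and highest CPM of 11.2, 14.1 and 16.8 in WT, 7.97, 8.86 and 9.69 in Trem2KO, and 5.84, 7.43 and 8.89 in Plcg2KO. Neither knockout overlapped WT. The log2 fold change of Col5a1 was -0.66 ± 0.14 in Trem2KO and -0.95 ± 0.14 in Plcg2KO, with adjusted p of 0.0022 and 3.62e-05 by edgeR. This type V chain was thus lower in both knockouts, where both type I chains were higher.

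Col24a1 (chr3:145292472-145552005) fell most among the fibrillar genes. Its lowest, median and highest CPM were 2.55, 2.92 and 3.78 in WT, 0.878, 1.25 and 1.71 in Trem2KO, and 0.978, 1.02 and 1.65 in Plcg2KO, and neither knockout overlapped WT. That is a log2 fold change of -1.28 ± 0.21 in Trem2KO and -1.41 ± 0.22 in Plcg2KO, with adjusted p of 0.000182 and 4.63e-05 by edgeR. Col27a1 (chr4:63215412-63334990) had a lowest, median and highest CPM of 4.13, 4.68 and 6.95 in WT, 2.01, 2.54 and 2.97 in Trem2KO, and 1.44, 2.22 and 3.32 in Plcg2KO, again without overlap. Its log2 fold change was -0.96 ± 0.17 in Trem2KO (adjusted p 0.00049, edgeR) and -1.15 ± 0.18 in Plcg2KO (adjusted p 5.58e-05, edgeR). Without WT F1, whose 6.95 CPM stood apart, the log2 fold change of Col27a1 was -0.84 in Trem2KO and -1.05 in Plcg2KO, and both calls held.

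Col11a1 (chr3:114030540-114220326) had a lowest, median and highest CPM of 4.68, 6.08 and 9.04 in WT, 2.22, 2.81 and 4.79 in Trem2KO, and 2.32, 3.33 and 3.999 in Plcg2KO. Only Trem2KO M2 lay inside the WT range. The log2 fold change was -1.01 ± 0.18 in both knockouts, with adjusted p of 0.000375 in Trem2KO and 0.000347 in Plcg2KO by edgeR. The other chain of type XI did not follow it in both. Col11a2 (chr17:34039437-34066242) had a lowest, median and highest CPM of 14.9, 20.7 and 24.7 in WT, 17.6, 20 and 22.98 in Trem2KO, and 8.51, 10.4 and 12.9 in Plcg2KO. All 6 Plcg2KO libraries were below all 18 others, including those labelled Plcg2HET, whose lowest was 13.8 CPM. Col11a2 fell by 0.98 ± 0.15 on the log2 scale in Plcg2KO (adjusted p 4.3e-05, edgeR), while in Trem2KO it was not called and the 95% interval of the log2 fold change was -0.31 to 0.29. Col5a3, a further type V chain, fell in Plcg2KO (log2 fold change -1.20 ± 0.33, adjusted p 0.0161 by edgeR), and without Plcg2KO F1 it was at -1.07 with an adjusted p of 0.0559. Col2a1, the main collagen of cartilage, and Col5a2, a type V chain, were called in no pairwise comparison that was run.

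Of the 6 genes of type IV collagen, the basement membrane network, none was called in Plcg2KO or Plcg2HET against WT and 1 was higher in Trem2KO. Of all genes, 5.44% were higher and 7.63% lower in Plcg2KO, 7.56% and 8.16% in Trem2KO, and 10.9% and 7.13% in Plcg2HET. Counts this small among 6 genes do not set type IV apart from other genes. Col4a1 and Col4a2 encode the chains found in all vessel basement membranes, and their genes share the start region printed above. Col4a1 (chr8:11198423-11312826) had a lowest, median and highest CPM of 15.4, 29.0 and 32.8 in WT, 20.9, 23.6 and 26.6 in Trem2KO, 18.8, 21.3 and 23.5 in Plcg2KO, and 19.95, 23.1 and 31.0 in Plcg2HET. WT spanned both knockouts because 1 library, F3, was lowest of all 24. Col4a2 (chr8:11312829-11449287) had a lowest, median and highest CPM of 24.4, 34.97 and 40.6 in WT, 29.6, 32.8 and 36.3 in Trem2KO, 19.3, 25.97 and 28.6 in Plcg2KO, and 23.3, 33.9 and 49.1 in Plcg2HET. Over the 4 genotypes Col4a2 was called (adjusted p 0.0276, edgeR) and Col4a1 was not (0.114). In Plcg2KO against WT the log2 fold change was -0.37 ± 0.13 for Col4a1 and -0.42 ± 0.15 for Col4a2, with adjusted p of 0.0604 and 0.0567 by edgeR, just short of the threshold. In Trem2KO against WT the values were -0.19 ± 0.13 and -0.01 ± 0.15, neither called. Both genes were called lower in Plcg2KO by DESeq2 (adjusted p 0.0464 and 0.0417) and with the GC and length offsets (adjusted p 0.0133 and 0.00695), and with those offsets Col4a1 was also called lower in Trem2KO (log2 fold change -0.38, adjusted p 0.00415) and in Plcg2HET (-0.38, adjusted p 0.00372).

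Of the rarer type IV chains, Col4a6 rose in Trem2KO, from a median of 1.63 CPM in WT to 2.41, without overlap. Its log2 fold change was 0.59 ± 0.19 (adjusted p 0.0324, edgeR), and the call was lost with any of 7 libraries left out (WT M2, F1 or F3, Trem2KO M1, M2, F1 or F2, adjusted p 0.0509 to 0.0933) and with GC and length offsets (adjusted p 0.0884). Col4a5, which lies head to head with Col4a6 on the X chromosome, was called over the 4 genotypes (adjusted p 0.00154, edgeR). It was called in none of the pairwise comparisons run, which were each genotype against WT and Plcg2KO against Trem2KO. Its means were 2.09 CPM in WT, 2.74 in Trem2KO, 2.79 in Plcg2KO and 1.54 in Plcg2HET, and neither knockout was tested against Plcg2HET. Col4a3 and Col4a4 were at means under 0.4 CPM in every genotype and were not called. Col18a1, a basement membrane collagen whose end fragment is endostatin, rose in Trem2KO from a median of 2.72 CPM in WT to 4.28 without overlap, a log2 fold change of 0.71 ± 0.20 (adjusted p 0.0145, edgeR). In Plcg2KO the log2 fold change of Col18a1 was 0.38, not called, and 0.44 with GC and length offsets, called with an adjusted p of 0.0366. In Plcg2HET it was 0.56 with an adjusted p of 0.0515 by edgeR, and was called with RLE size factors (0.0477) and by DESeq2 (0.0242). The other multiplexin, Col15a1, was not called in any of these comparisons.

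**Figure D3:**
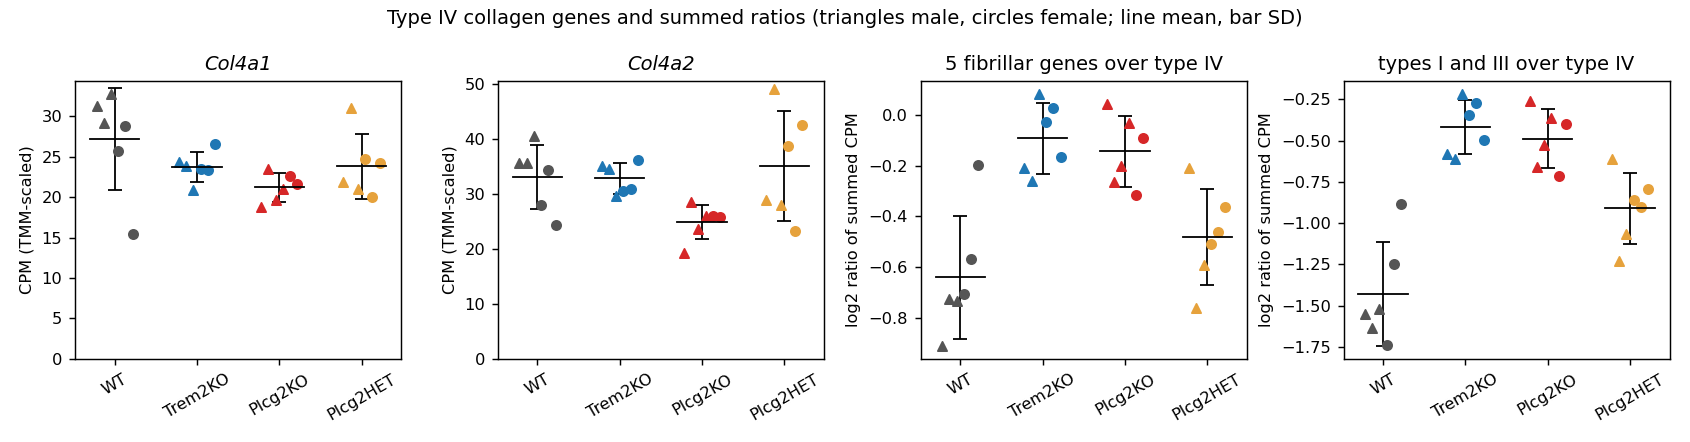
CPM of Col4a1 and Col4a2 and the log2 ratio of summed CPM, 5 fibrillar genes or types I and III alone over Col4a1 plus Col4a2, in each of 24 libraries, with the mean (line) and SD (bar) of 6. In the plot of types I and III over type IV, both knockouts lie between -0.717 and -0.216, above all WT libraries.

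To set fibrillar against basement membrane collagens, the CPM of Col1a1, Col1a2, Col3a1, Col5a1 and Col5a2 was summed in each library and divided by that of Col4a1 and Col4a2. The log2 of this ratio was -0.64 ± 0.243 (SD, n = 6) in WT, -0.093 ± 0.139 in Trem2KO, -0.143 ± 0.14 in Plcg2KO and -0.482 ± 0.188 in Plcg2HET. The knockouts were thus 0.547 and 0.497 above WT on average, but WT F3, at -0.198, lay inside the range of both because its type IV sum, 39.83 CPM, was low. The sum joins genes that moved in opposite directions, so types I and III alone were also set against type IV, a choice made after seeing the data. That log2 ratio was -1.741 to -0.882 in WT, -0.609 to -0.216 in Trem2KO, -0.717 to -0.263 in Plcg2KO and -1.228 to -0.613 in Plcg2HET. Both knockouts lay above WT in all libraries, by 1.011 and 0.942 on average. Since single genes of both sums had been seen to differ, no test is given for either ratio.

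Outside the fibrillar and type IV classes, 14 genes were called over the 4 genotypes, where 45.7% of all genes were. By class, 7 of 9 fibril-associated, 2 of 6 type VI and 1 of 2 multiplexin genes were called. So were 1 of 3 short chain genes, 1 of 4 transmembrane genes and 2 of the 3 other genes. Type VI collagen forms beaded filaments beside basement membranes from the chains of Col6a1, Col6a2 and Col6a3. Col6a3 rose in Trem2KO (log2 fold change 0.53 ± 0.17, adjusted p 0.0294 by edgeR), while Col6a1 stood at -0.36 ± 0.18 and Col6a2 at 0.44 ± 0.19, neither called. Col6a1 had a mean of 41.9 ± 7.68 CPM in WT, 32.6 ± 3.95 in Trem2KO, 29.7 ± 5.999 in Plcg2KO and 39.5 ± 14.9 in Plcg2HET (SD, n = 6), and it was called lower in Trem2KO with GC and length offsets (adjusted p 0.018) and in Plcg2KO by DESeq2. The Col6a3 call was lost with GC and length offsets (adjusted p 0.128) and with any of WT M1, M3, F1 or F3 or Trem2KO M1, F2 or F3 left out (adjusted p 0.053 to 0.0873). Col8a2, a short chain found around vessels and in the cornea, rose in Trem2KO from a median of 1.75 to 2.69 CPM without overlap (log2 fold change 0.78 ± 0.22, adjusted p 0.0188 by edgeR). Without WT F1 or Trem2KO F3 it was at 0.64 to 0.69 with adjusted p of 0.0536 to 0.0614.

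Among the fibril-associated collagens, which decorate fibres without forming them, all 4 calls against WT in the knockouts were lower. Col9a1, a cartilage collagen chain, fell in Plcg2KO from a median of 0.477 to 0.217 CPM (log2 fold change -1.26 ± 0.31, adjusted p 0.00602 by edgeR). Col20a1 fell in Plcg2KO from a median of 3.42 to 2.31 CPM (log2 fold change -0.57 ± 0.15, adjusted p 0.00883 by edgeR). Col16a1 fell in Plcg2KO from a median of 12.5 to 8.58 CPM, but its adjusted p of 0.0424 passed the threshold in only 10 of 24 fits with 1 library left out. It was lost without WT M1, M3, F1, F2 or F3, Trem2KO M1, M3, F1 or F2, or Plcg2KO M1, M3, M4, F1 or F2 (adjusted p 0.0507 to 0.13), and WT F1, at 17.9 CPM, stood apart. Col9a2 and Col14a1 were called over the 4 genotypes (adjusted p 0.0297 and 0.0105, edgeR) but in none of the pairwise comparisons run. Those did not set either knockout against Plcg2HET. Col9a2 had medians of 9.09 CPM in WT, 11.3 in Trem2KO, 8.67 in Plcg2KO and 11.1 in Plcg2HET, and Col14a1 of 1.13, 1.502, 1.27 and 0.770. Col19a1, made by interneurons in mouse brain, fell in Trem2KO from a median of 19.2 to 12.7 CPM (log2 fold change -0.56 ± 0.14, adjusted p 0.00625 by edgeR), whereas in Plcg2KO its log2 fold change was -0.26 and not called.

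Col25a1 encodes a neuronal transmembrane collagen whose shed part was found in amyloid plaques of human Alzheimer's disease brain. It had a lowest, median and highest CPM of 27.1, 35.5 and 48.8 in WT, 36.7, 44.9 and 59.0 in Trem2KO, and 54.4, 60.0 and 61.1 in Plcg2KO (chr3:130180845-130599883). All Plcg2KO libraries lay above all WT libraries, and within WT the 3 males, at 41.4 to 48.8, lay above the 3 females, at 27.1 to 29.6. In libraries labelled Plcg2HET it was at 63.1 CPM in M3 and 58.3 in F2 but 25.5 to 37.5 in the other 4. M3 and F2 are the Plcg2HET libraries with negative GC trends, and the Col25a1 transcript has 45.9% GC, against a median of 55.1% over the collagen genes. The part of GC content in these levels was not tested. The log2 fold change of Col25a1 in Plcg2KO was 0.67 ± 0.18 (adjusted p 0.0152, edgeR), and 0.54 with GC and length offsets (adjusted p 0.000371). In males alone it was 0.35 and not called (adjusted p 0.616, edgeR), while the call held in females alone. In Trem2KO the value over both sexes was 0.34 ± 0.18, not called, and 0.36 with those offsets, called with an adjusted p of 0.0137.

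Of the remaining genes, Col7a1, the collagen of the anchoring fibrils of skin, fell in Plcg2KO from a median of 1.53 to 0.494 CPM without overlap (log2 fold change -1.61 ± 0.34, adjusted p 0.00211 by edgeR). In Trem2KO its median was 0.786 CPM, and its call (log2 fold change -0.96 ± 0.33, adjusted p 0.0474 by edgeR) was lost in 15 of 24 fits with 1 library left out. Those were the fits without WT M2, M3, F1, F2 or F3, Trem2KO M1, M3, F1, F2 or F3, Plcg2KO M1, M2, M4 or F2, or Plcg2HET F3 (adjusted p 0.051 to 0.122). An exon of Col7a1 overlaps Mir711, so its counts may hold or lose reads there. Col26a1 fell in both knockouts, from a median of 4.89 CPM in WT to 3.26 in Trem2KO and 3.11 in Plcg2KO. Its log2 fold change was -0.46 ± 0.14 in Trem2KO (adjusted p 0.027, edgeR) and -0.62 ± 0.14 in Plcg2KO (adjusted p 0.00427, edgeR). The Trem2KO call of Col26a1 was lost without WT M2, M3, F1 or F2 or Trem2KO M2, F1 or F2 (adjusted p 0.0508 to 0.0745).

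Libraries labelled Plcg2HET shared some of these values but not others, and their Plcg2 level overlapped that of WT, as given above. Col1a1 and Col1a2 were called higher, with log2 fold changes of 0.54 ± 0.15 and 0.51 ± 0.12 (adjusted p 0.0147 and 0.00554, edgeR). The group was split, since Col1a1 was at 5.43 and 5.72 CPM in M3 and F2, inside the WT range, and at 8.59 to 10.3 in the other 4. Those are the libraries in which GC trends had opposite signs, and the part of that trend in the split was not tested. With GC and length offsets the log2 fold changes of Col1a1 and Col1a2 were 0.33 and 0.35, smaller but still called (adjusted p 0.0404 and 0.0138, edgeR). Col3a1 was at 0.02 ± 0.18 on the log2 scale, with a 95% interval of -0.35 to 0.39, and was not called. Col5a1 (-0.60 ± 0.14), Col11a1 (-0.60 ± 0.18), Col24a1 (-0.91 ± 0.21) and Col26a1 (-0.58 ± 0.15) were called lower, with adjusted p of 0.00477, 0.0202, 0.00453 and 0.00758 by edgeR. Without WT M2, WT F1 or Plcg2HET F1 the Col11a1 call was lost (adjusted p 0.0519 to 0.0694).

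Col6a5, of a rare type VI chain, was called lower and Col9a3, a chain of the cartilage collagen type IX, higher in Plcg2HET alone. Col6a5 had a median of 0.477 CPM in Plcg2HET against 0.964 in WT, without overlap (log2 fold change -1.09 ± 0.26, adjusted p 0.00567 by edgeR). Col9a3 had a median of 12.6 CPM against 9.32 (log2 fold change 0.41 ± 0.12, adjusted p 0.019 by edgeR). That call was lost without Plcg2HET M2 or F1 (adjusted p 0.0612 to 0.0658) and with GC and length offsets (0.125), and an exon of Col9a3 overlaps Tcfl5. In Plcg2KO, Col9a3 was at 6.27 to 8.87 CPM, below all WT libraries, but was not called (log2 fold change -0.31 ± 0.12, adjusted p 0.0885 by edgeR). Whether the Plcg2HET values of these genes differ from those of the knockouts was not tested. The count of 8 called collagen genes in Plcg2HET stood beside 2936 genes called in all and changed with the fit. With GC and length offsets it was 14, of 3725 genes called in all. Without M3 and F2, a choice made after seeing the data, it was 15 of 7279, without M3 alone 14 of 4369 and without F2 alone 13 of 3988. Without the 3 libraries rich in Rn45s it was 3 of 807, and with WT and Plcg2HET alone fitted 1 of 736. Col1a1 and Col1a2 were among the calls lost in both of these last fits.

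The knockouts were also compared with each other. In Plcg2KO against Trem2KO, 4 collagen genes were lower and none higher, where 8.82% of all genes were lower and 7.63% higher. Col11a2 was lower by -0.97 ± 0.15 on the log2 scale (adjusted p 0.00069, edgeR), Col9a1 by -1.02 ± 0.31 (0.0269), Col1a2 by -0.42 ± 0.12 (0.0247) and Col20a1 by -0.49 ± 0.15 (0.0263). For the other genes of large fibres the 95% interval of the log2 difference was -0.64 to -0.02 for Col1a1 and -0.39 to 0.30 for Col3a1. In this comparison fold change fell with GC content, with a Spearman correlation of -0.673 over the 44 collagen genes and -0.644 over 15693 genes, given as a description since genes share the libraries. With GC and length offsets, Col11a2 was the only 1 of the 4 still called (log2 fold change -0.67, adjusted p 0.00119). Col1a2 was then at -0.22 with an adjusted p of 0.181, Col20a1 at -0.25 with 0.218, and Col9a1 at -0.92 with 0.0634, close to its value without them. The count of 4, among 2684 genes called in all, was 14 of 6712 when only the knockouts were fitted and 10 of 5441 without Plcg2HET M3 and F2. Col1a2 was lost without Trem2KO F3 or Plcg2KO F1 (adjusted p 0.0547 to 0.0714), Col20a1 without Trem2KO M1 or F3 or Plcg2KO M2, F1 or F2 (0.0526 to 0.0842), and Col9a1 without Trem2KO M1, F1 or F3 or Plcg2KO F1 or F2 (0.0505 to 0.0739). The count was 7 of 3260 without Plcg2HET M2, 2 of 769 without Trem2KO M1, 1 of 1060 without Trem2KO F3, 1 of 1142 without Plcg2KO F1 and 2 of 1319 without Plcg2KO F2.

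**Figure D4:**
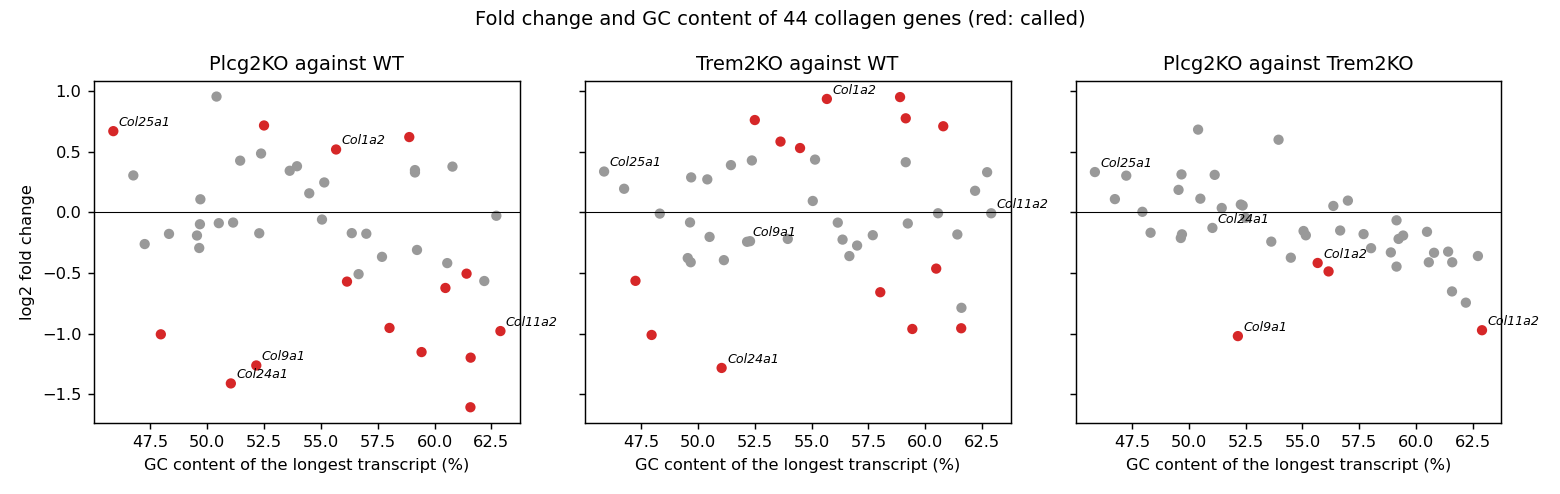
Log2 fold change of the 44 collagen genes (vertical) against the GC content of each gene's longest transcript in percent (horizontal), for Plcg2KO against WT, Trem2KO against WT and Plcg2KO against Trem2KO, with called genes in red. The downward trend in the comparison of the knockouts has a Spearman correlation of -0.673, while against WT the correlations are -0.289 and 0.064.

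Against WT, the Spearman correlation of fold change with GC content over the 44 genes was -0.289 in Plcg2KO, 0.064 in Trem2KO and 0.281 in Plcg2HET, beside -0.316, 0.353 and 0.348 over all genes with a value. Collagen transcripts are rich in GC and long, with a median of 55.1% against 49.8% over all genes and 5938.5 against 2858 exon bases. With offsets for both, all 15 collagen genes called in Plcg2KO were called again and 12 of the 14 in Trem2KO. More were called than without them, 5 higher and 15 lower in Plcg2KO, and 6 higher and 12 lower in Trem2KO. Over all genes 3263 and 3234 were then called, beside 2133 and 2565 without offsets.

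No collagen gene was called between females and males, where 2.37% of all genes were, and none was called in the other edgeR fits run for sex. At an unadjusted p under 0.05 there were 3 of 44, with Col3a1 at a log2 fold change of 0.30, Col2a1 at -0.41 and Col11a1 at -0.27 in females. An interaction test of genotype with sex called 0 of all genes in any comparison, with 2 to 4 mice per sex and genotype, so it cannot tell whether collagen effects differ between the sexes (lowest adjusted p 0.636 over the 28 collagen genes described by name, edgeR).

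Genes that act with collagens were counted in 4 lists, beside the shares of all genes higher and lower in the same comparisons, 5.44% and 7.63% in Plcg2KO, 7.56% and 8.16% in Trem2KO, and 10.9% and 7.13% in Plcg2HET. Of 31 tested genes for making and crosslinking collagen, 2 were higher and 2 lower in Plcg2KO, 2 and 3 in Trem2KO, and 9 and 2 in Plcg2HET. Lox, which crosslinks fibrillar collagen, fell from 1.54 ± 0.819 CPM in WT (SD, n = 6) to 0.526 ± 0.0497 in Trem2KO and 0.338 ± 0.135 in Plcg2KO (adjusted p 0.00111 and 5.65e-05, edgeR), and was 1.76 ± 0.547 in Plcg2HET, not called. P4ha1, a prolyl hydroxylase that stabilises the helix, was lower in Trem2KO (log2 fold change -0.43 ± 0.10, adjusted p 0.00497, edgeR) and higher in Plcg2HET (0.48 ± 0.10, adjusted p 0.00226). Plod3, a lysyl hydroxylase, was higher in Plcg2HET (0.68 ± 0.16, adjusted p 0.00419, edgeR). Lox was lower in both knockouts, where types I and III were higher, but was not called in Plcg2HET, where Col1a1 and Col1a2 were higher. It is named for its small p, and the related Loxl1, Loxl2 and Loxl3 of the same list are not described here. A link of Lox to the collagen values was not tested.

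Of 10 tested collagen receptors, 3 were lower in Plcg2KO, 2 higher and 1 lower in Trem2KO, and 3 higher in Plcg2HET, where 7.63% of all genes were lower in Plcg2KO, 7.56% higher and 8.16% lower in Trem2KO, and 10.9% higher in Plcg2HET. Lair1, an inhibitory collagen receptor of leukocytes, fell from 26.7 ± 8.57 CPM in WT to 13.5 ± 1.28 in Trem2KO and 13.8 ± 1.89 in Plcg2KO (adjusted p 9.46e-07 and 3.3e-06, edgeR). Cd44, a matrix receptor, fell in Plcg2KO (log2 fold change -0.71 ± 0.11, adjusted p 7.09e-05, edgeR), and Mrc2, which takes up collagen into cells, rose in Plcg2HET (0.75 ± 0.16, adjusted p 0.00277, edgeR). Microglial markers moved in the same libraries, 8 of 10 lower in Trem2KO and 9 of 10 in Plcg2KO, with a summed level of 1001 to 1649 CPM in WT, 683.2 to 954.1 in Trem2KO, 558.4 to 893.9 in Plcg2KO and 1027 to 1770 in Plcg2HET. Their part in the receptor values was not tested.

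Of 15 laminin and other basement membrane genes, 3 were higher and 2 lower in Plcg2KO, 5 higher in Trem2KO, and 2 higher and 1 lower in Plcg2HET. The shares of all genes higher and lower were 5.44% and 7.63%, 7.56% and 8.16%, and 10.9% and 7.13%. The laminin chains Lama2 and Lamb1 rose in both knockouts, by 0.49 ± 0.09 and 0.53 ± 0.10 on the log2 scale in Trem2KO (adjusted p 0.000346 and 0.00061, edgeR) and by 0.42 ± 0.09 and 0.41 ± 0.10 in Plcg2KO (0.00148 and 0.00489). Agrn, the heparan sulfate proteoglycan agrin, fell in Plcg2KO (-0.38 ± 0.11, adjusted p 0.0198, edgeR) and Plcg2HET (-0.39 ± 0.11, adjusted p 0.0147). Of 9 tested small proteoglycans, which bind collagen fibres, 7 were higher in Plcg2KO, 6 in Trem2KO and 4 in Plcg2HET, with none lower. Ogn, or osteoglycin, was at 3.72 ± 1.07 CPM in WT, 6.67 ± 1.15 in Trem2KO and 9.70 ± 0.821 in Plcg2KO, Fmod, or fibromodulin, at 24.8 ± 5.79, 47.9 ± 5.37 and 41.1 ± 5.20, and Bgn, or biglycan, at 13.7 ± 1.65, 21.7 ± 1.77 and 19.6 ± 4.20. The adjusted p of these 3 genes was 0.00444, 6.07e-05 and 0.0033 in Trem2KO and 2.11e-05, 0.000696 and 0.0179 in Plcg2KO (edgeR).

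Markers of the cells that hold collagen RNA were read beside these results, where 5.44% of all genes were higher and 7.63% lower in Plcg2KO, 7.56% and 8.16% in Trem2KO, and 10.9% and 7.13% in Plcg2HET. Of 16 fibroblast markers other than collagens, 13 were higher in Trem2KO, 10 in Plcg2KO and 9 in Plcg2HET, with none lower. Their summed level was 178.4 to 226.8 CPM in WT, 263.5 to 293.2 in Trem2KO, 238.7 to 292.1 in Plcg2KO and 228.6 to 318.4 in Plcg2HET, so no library of the other genotypes was as low as any WT library. The list includes Dcn, Lum and Ogn, which were also counted among the small proteoglycans, so the 2 lists are not independent. Its genes with the smallest p were Slc13a3, Ogn and Foxc2. Foxc2 was at a mean of 0.536 CPM in WT, 1.22 in Trem2KO, 1.38 in Plcg2KO and 1.83 in Plcg2HET. In Plcg2HET M3 and F2 the sums were 228.7 and 228.6 CPM, above the WT range, where Col1a1 lay inside it, and Col3a1 was not called in Plcg2HET. The part of fibroblast markers in the collagen values was not tested.

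**Figure D5:**
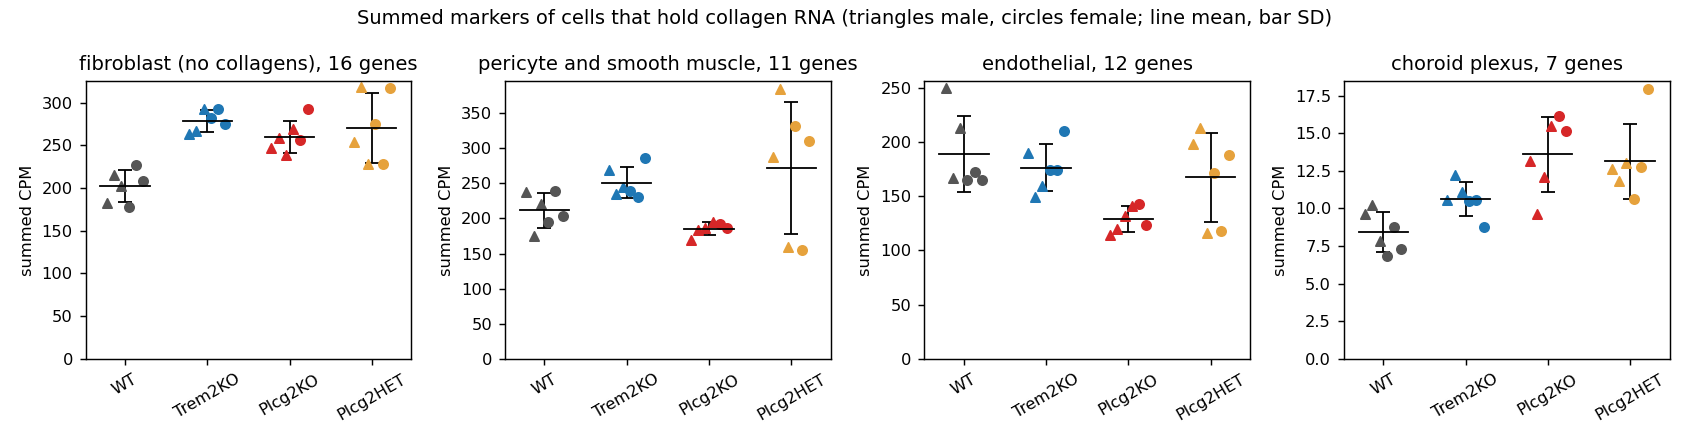
Summed CPM of marker genes of fibroblasts (16 genes), pericytes and smooth muscle (11), endothelium (12) and choroid plexus (7) in each of 24 libraries, with the mean (line) and SD (bar) of 6. Fibroblast markers are above the WT range in all libraries of the other genotypes, and endothelial markers are lowest in Plcg2KO.

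Of 12 endothelial markers, 9 were lower in Plcg2KO, none in Trem2KO and 3 in Plcg2HET, with a summed level of 164.7 to 249.3 CPM in WT, 149.0 to 210.0 in Trem2KO, 114.4 to 143.1 in Plcg2KO and 116.3 to 212.5 in Plcg2HET. Their genes with the smallest p, Kdr, Tek and Slco1a4, were at log2 fold changes of -0.77, -0.82 and -0.60 in Plcg2KO. Of 11 pericyte and smooth muscle markers, none was called in Plcg2KO, 2 were higher in Trem2KO (Anpep at 0.89 ± 0.18, adjusted p 0.00144 by edgeR), and 1 was higher and 1 lower in Plcg2HET, with sums of 174.9 to 239.0 CPM in WT, 229.9 to 286.3 in Trem2KO, 168.8 to 195.1 in Plcg2KO and 155.7 to 384.3 in Plcg2HET. Of 7 tested choroid plexus markers, 2 were higher in Plcg2KO, 1 in Trem2KO and 3 in Plcg2HET, with none lower. Their sum was 6.82 to 10.2 CPM in WT, 8.78 to 12.2 in Trem2KO, 9.6 to 16.2 in Plcg2KO and 10.6 to 17.9 in Plcg2HET. All Plcg2HET libraries thus lay above all WT libraries. The defining marker Ttr had medians of 0.3, 0.459, 2.45 and 1.34 CPM in the same order, and was at most 5.68 CPM. The part of choroid plexus in the collagen values was not tested. The part of vessel cells in the type IV values was not tested.

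Neuronal markers were counted beside Col19a1 and Col25a1, which neurons express. No list of interneurons, named above for Col19a1, was counted, so these counts do not cover the cells of that gene. Of 8 markers of cortical excitatory neurons, none was called in Plcg2KO, 1 was higher and 1 lower in Trem2KO and 1 higher in Plcg2HET. Of 7 thalamic markers, 3 were higher in Plcg2KO, 1 in Trem2KO and 3 in Plcg2HET, and of 7 striatal markers, none was called in either knockout against WT, with 1 higher and 2 lower in Plcg2HET. The shares of all genes higher and lower were 5.44% and 7.63% in Plcg2KO, 7.56% and 8.16% in Trem2KO, and 10.9% and 7.13% in Plcg2HET.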

How the data were processed

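RNA of 24 cortices was sequenced, 1 library per mouse. The authors deposited whole-number counts per gene, with exon coordinates, as the file headers show. STAR 2.7.10a, featureCounts 2.0.3 and mm10 are listed, per the submitters' processing notes. The deposited expected counts (tool: not given in the sources used here) were rounded and used for an alternative fit only, and the authors' TPM and FPKM values entered no test. Nothing read here says whether counting used strand. P-values weigh differences between groups of mice against the spread between mice.

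Counts were filtered with filterByExpr (minimum count 10 by genotype), scaled by TMM and fitted over 24 libraries with 1 mean per genotype and a sex term (edgeR 4.0.16, robust quasi-likelihood, R 4.3.3). Adjusted p-values are Benjamini-Hochberg over 16316 genes, with calls under 0.05. CPM values are TMM-scaled. The fit was tested on simulated data. Members, classes and lists were chosen with earlier results of these data known. Collagen genes called in any genotype test, and Col4a1 and Col6a1 whatever their result, are named with values. The 3 genes of smallest p are named per list. Alternatives were RLE, other filters, a fit without sex, a replicate block, males or females alone, fewer groups, DESeq2 1.42.0, left-out libraries, GC and length offsets (available for 96.2% of genes) and expected counts. Sequences came from GENCODE M21 and RefSeq.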

Additional observations from a re-analysis of the deposited data

Results flagged for a closer look

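Of 112 groups of 6 libraries examined (28 collagen genes in 4 genotypes), 4 held a library far from the other 5, where chance flags about 1 in 20 (5.6). Col27a1 was at 6.95 CPM and Col16a1 at 17.9 CPM in WT F1, each above the other WT libraries, and WT F1 also had 9.59% of its counts from Rn45s. Col7a1 was at 3.34 CPM in Plcg2HET M2, where the other 5 libraries were at most 1.19. Col6a5 was at 1.21 CPM in Plcg2KO M4, where the other 5 were at most 0.891.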

How the results depend on the processing

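No called collagen value changed sign under the alternatives run. Uncalled values near 0 did with 1 library left out, such as Col3a1 in Plcg2HET (-0.09 without Plcg2HET F3, 0.02 with it) and Col4a2 in Plcg2HET (-0.04 without Plcg2HET M2, 0.09 with it). Each sex alone, with fewer libraries, called 5 (males) and 7 (females) collagen genes in Plcg2KO, 1 and 8 in Trem2KO, 0 and 1 in Plcg2HET, 0 and 0 between the knockouts, and 4 and 10 over the 4 genotypes. Of all genes these fits called 369 and 1011, 72 and 963, 5 and 419, 11 and 6, and 751 and 2090, in the same order. With both sexes, 2133, 2565, 2936, 2684 and 7463 were called, so the collagen counts do not tell the sexes apart. Only the groups compared gave 1 in Plcg2HET and 14 between the knockouts. GC and length offsets gave 14 in Plcg2HET and 1 between the knockouts. Without the 3 libraries rich in Rn45s, Plcg2HET had 3. Without Plcg2HET M3 and F2, an alternative added after seeing the data, Plcg2HET had 15 and the knockouts 10. With 1 library left out, counts ran from 14 to 18 in Plcg2KO, 9 (without WT F1) to 15 in Trem2KO, 6 to 14 in Plcg2HET, 1 to 7 between the knockouts and 20 to 29 over the 4 genotypes. Over all genes the calls then ran from 1441 to 2596, 1662 to 3025, 1957 to 4369, 769 to 3911 and 6454 to 9061. The cause of these changes was not tested. Types I and III alone over type IV moved the log2 difference from WT to 1.011 in Trem2KO, 0.942 in Plcg2KO and 0.52 in Plcg2HET. With the replicate block the knockouts differed in 2 genes. Whether the replicate code pairs mice was not tested. Over 33 same-code pairs the median correlation of deviations was -0.021, and 4 exceeded 0.1. Over 75 pairs with other codes of the same sex it was 0.007, and 16 exceeded 0.1. DESeq2, RLE size factors, other filters, no sex term and expected counts kept every count of called collagen genes within 1.5 times, but expected counts lost Col4a6, Col7a1 and Col26a1 in Trem2KO, Col16a1 in Plcg2KO and Col9a1 between the knockouts, and Col7a1 in Trem2KO was also lost with no count filter (adjusted p 0.0505) and with no sex term (0.0663). Genes under 1 CPM, such as Col9a1 and Col6a5, rest on few counts.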
